A study of Oryctolagus cuniculus with 12 samples.

Results

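The 10 genes described here encode Toll-like receptors (TLR2, TLR3, TLR4, TLR5, and TLR6), their adaptor MYD88, the intracellular sensors NOD1, NOD2, and NLRP3, and the protease CASP1. They were taken by name from the table of 20566 rabbit genes that the authors deposited, and all 10 were found and passed the filter on low counts. RNA was sequenced in conjunctiva of female Japanese white rabbits, which were 12 to 14 weeks old per the study's methods. The groups TL3h, TL3d, and TL14d (titled TL-3h, TL-3d, and TL-14d) held 3 libraries each of bleb conjunctiva from right eyes that had undergone trabeculectomy 3 hours, 3 days, or 14 days before, an operation that drains fluid from inside the eye into a blister, the bleb, under the conjunctiva. The control group held 3 libraries of conjunctiva from left eyes, which were not operated on. Per the same methods, every operated eye was also given mitomycin C, an inhibitor of scarring, and, at the end of surgery, an injection of betamethasone, a glucocorticoid, and an antibiotic ointment. The paper took these trabeculectomy libraries from earlier data and does not state the drugs for them separately. Effects of the surgery and of these drugs cannot be told apart in this design, and the rabbit and time from which each control library came are not given in the sources used here.

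Toll-like receptors recognize molecules that are common to microbes or are released by damaged cells. TLR2 binds bacterial lipoproteins, as a pair with TLR6 or TLR1, TLR4 binds lipopolysaccharide together with its partner LY96, and TLR5 binds flagellin, all at the cell surface, whereas TLR3 binds double-stranded RNA inside endosomes. All of these except TLR3 signal through MYD88 towards NF-κB and inflammatory cytokines. NOD1 and NOD2 sense fragments of the bacterial cell wall in the cytosol. NLRP3 forms the core of an inflammasome, a protein complex that activates CASP1, which in turn matures interleukin-1β and cuts gasdermin D. In the conjunctiva these sensors are carried by the surface epithelium and by resident and infiltrating leukocytes.

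The 12 libraries held between 27111348 and 38591425 estimated counts, and the 10 genes together took 412.7 to 780.6 of them in counts-per-million (CPM). Values below are CPM scaled by TMM, a method that sets most genes at an equal level across libraries. TMM factors were 0.768 to 0.783 in TL3h and 1.03 to 1.13 in the other groups, so scaling by library size alone lowered the median log2 change of all genes at 3 hours from 0.02 to −0.47. Keratins of the ocular surface were high in every library: KRT5 ranged from 1258 to 9067 CPM and PAX6, a transcription factor of this epithelium, from 54 to 382 CPM. Some libraries stood apart from their group. TL14d replicate 1 correlated more with the controls (mean r = 0.969 over genes) than with the other TL14d libraries (0.914), and control replicate 3 and TL3d replicate 3 had the lowest mean correlation within their groups (0.946 and 0.948).

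At 3 hours the 10 genes split into 2 directions. TLR4, NLRP3, MYD88, NOD2, and NOD1 were higher than in the control group, TLR2 and TLR3 were lower, and TLR5, TLR6, and CASP1 did not pass the test (edgeR quasi-likelihood F-test, adjusted p of 0.05 or less by Benjamini-Hochberg over 14836 genes). These 7 of 10 compare with 45.4% of all genes tested that passed, 23.2% higher and 22.2% lower. With library size only, 3 of the 10 were higher and 4 lower, beside 1890 genes higher and 5677 lower of all: NOD1 (0.34, adjusted p = 0.284) and NOD2 (0.70, 0.0533) no longer passed, and TLR5 (−1.28, 0.00718) and TLR6 (−1.36, 0.0123) passed as lower. At 3 days 3 of 10 passed, TLR4, MYD88, and CASP1, all higher, where 17.6% of all genes passed, and 10.6% of all genes were higher. The 3 libraries of TL3h did not overlap the 3 controls in 8 of the 10 genes (57.3% of all genes), those of TL3d in 5 (45.6%), and those of TL14d in none (11.2%). At 14 days none of the 10 passed, and neither did any of the 14836 genes (0.00%). At an unadjusted p under 0.05 there were 1 of the 10 genes, TLR3, and 1539 of all genes at 14 days, and DESeq2 called 367 of all genes. The count of 0 over all genes rested on TL14d replicate 1: without it 717 genes (4.74%) were called at 14 days, still with none of the 10 among them, and 1221 without all 3 libraries that stood apart. The median log2 fold change of the 10 genes was 0.62 at 3 hours, 0.69 at 3 days, and 0.02 at 14 days, against 0.02, −0.00, and 0.02 over all genes. The 3 comparisons share the 3 control libraries. When the 3 time points were tested together, 8 of 10 genes passed, all but TLR5 and TLR6, as did 52.4% of all genes, and NOD1 lost this call in 8 of 18 alternatives (adjusted p = 0.0598 without TL14d replicate 1). In this joint test CASP1 lost its call with the 3 libraries that stood apart left out (adjusted p = 0.0764), TLR5 passed without TL14d replicate 1 (0.0214) or with library size only (0.031), and with library size only TLR6 passed (0.0334) and NOD2 did not (0.13). The count at 3 days rested on single libraries: it was 0 without control replicate 1 or 2 or without TL3d replicate 1 or 2, and 5 without control replicate 3. The 4 fits with a count of 0 called 2.36% to 3.23% of all genes at 3 days.

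**Figure D1:**
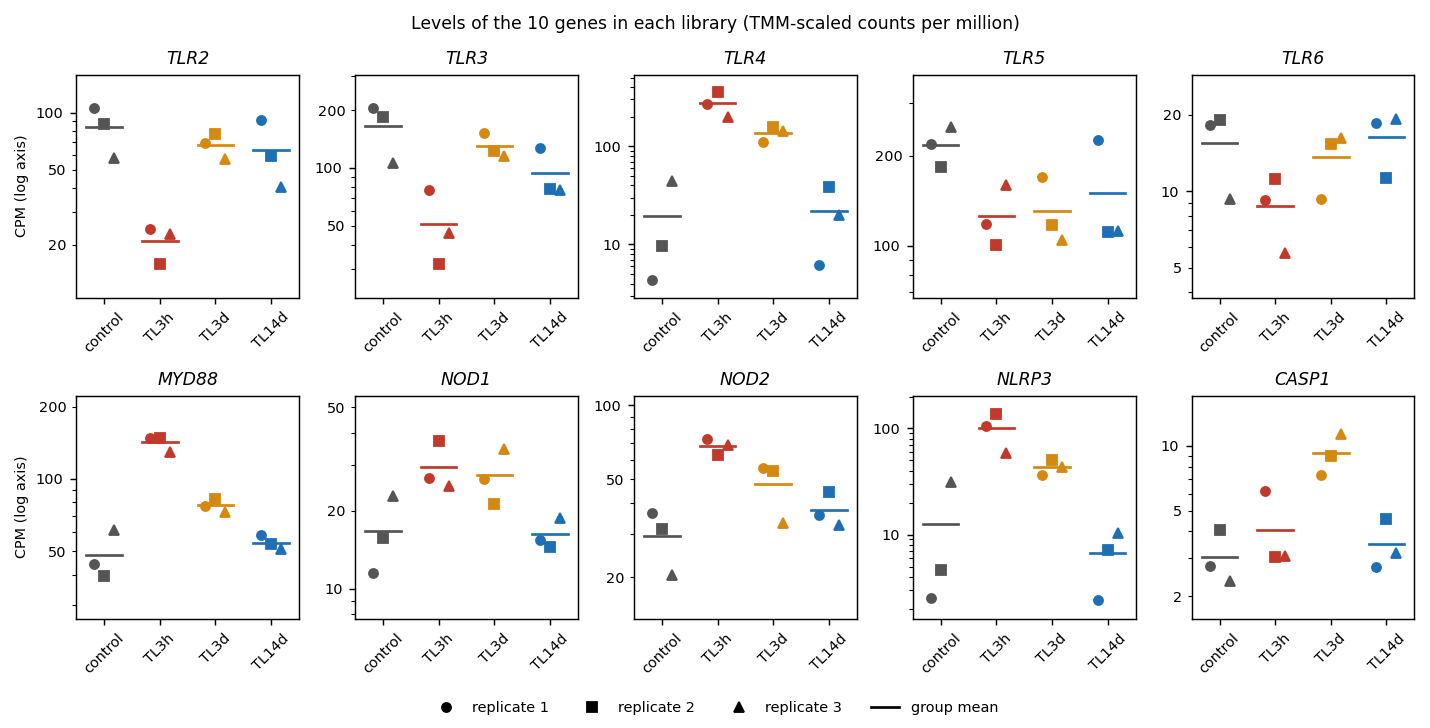
Level of each of the 10 genes in each library, in TMM-scaled CPM on a log axis, with the 3 replicates of each group as separate symbols and the group mean as a bar. All 3 TL3h libraries lie above the controls for TLR4, MYD88, NOD1, NOD2, and NLRP3 and below them for TLR2, TLR3, and TLR5, and the 3 TL3d libraries of CASP1 lie above every other library.

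**Figure D2:**
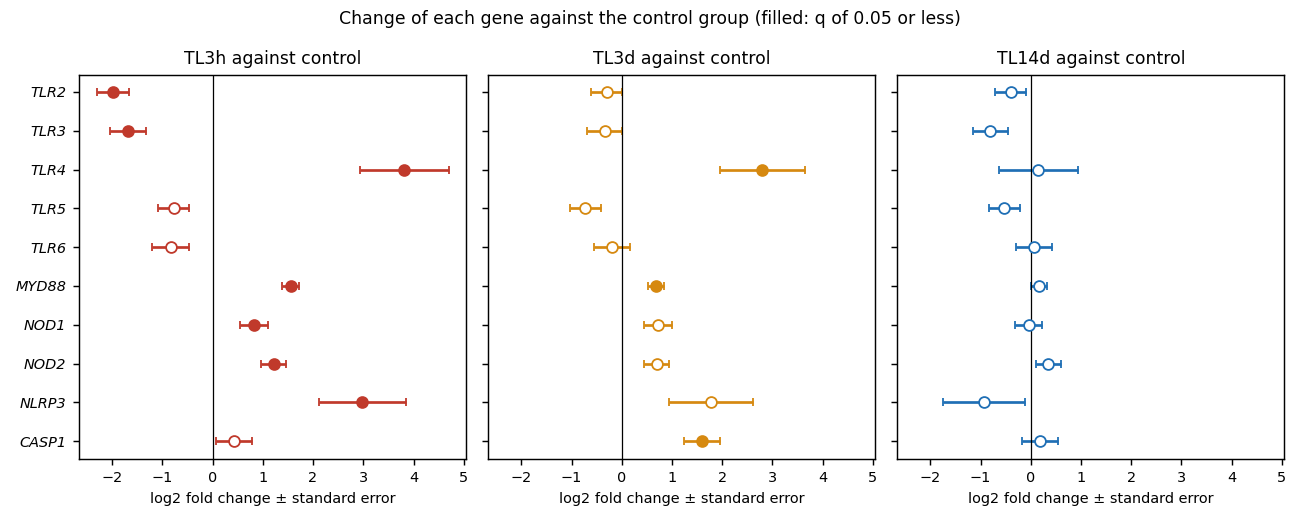
Log2 fold change of each gene against the control group at each of the 3 times, with its standard error from the edgeR fit over 3 libraries a group. Filled points have an adjusted p of 0.05 or less: 7 genes at 3 hours, 3 at 3 days, and none at 14 days.

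TLR4 had the largest rise of the 10 genes at 3 hours. Its locus lies on sequence of the OryCun2.0 assembly that is not placed on a chromosome. TLR4 was at 4.32, 9.56, and 44.8 CPM in the control libraries and at 271, 359, and 199 CPM in TL3h. It was at 110, 156, and 144 CPM in TL3d and at 6.25, 38.8, and 20.2 CPM in TL14d. Every TL3h and TL3d library was above every control library, with no overlap, and the TL14d libraries lay within the control range. TLR4 rose 14.1-fold at 3 hours (log2 fold change 3.82 ± 0.88 (SE, n = 3 a group), adjusted p = 0.00559 in edgeR). It was 6.99-fold higher at 3 days (2.80 ± 0.84, adjusted p = 0.0456). The call at 3 hours held in all 19 alternatives. The call at 3 days was lost in 11 of 19, among them those that left out control replicate 1 or 2, TL14d replicate 3, or any 1 of the TL3h or TL3d libraries, with adjusted p up to 0.136. Control replicate 3, the highest control, set the size of both: without it the log2 fold change was 5.27 at 3 hours and 4.29 at 3 days.

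NLRP3, the sensor of the inflammasome, was highest in TL3h and next highest in TL3d, as TLR4 was. It was at 2.54, 4.6, and 31 CPM in the controls and at 106, 136, and 58.5 CPM in TL3h. It was at 36.4, 50.4, and 43.8 CPM in TL3d and at 2.42, 7.2, and 10.3 CPM in TL14d. The TL3h and TL3d libraries all lay above the highest control, control replicate 3, which stood far above the other controls. NLRP3 rose 7.89-fold at 3 hours (log2 fold change 2.98 ± 0.87, n = 3 a group, adjusted p = 0.0181 in edgeR). The change at 3 days was 1.78 with an adjusted p of 0.152, and without control replicate 3 it was 3.60 with an adjusted p of 0.02. The call at 3 hours was lost without control replicate 2 (2.58, adjusted p = 0.0623) or without TL3h replicate 2 (2.66, adjusted p = 0.0514), and the change was 4.76 without control replicate 3.

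The libraries in which TLR4 and NLRP3 were high differed from the controls in markers of immune cells. The summed level of the 10 neutrophil markers in the table was 4.82 to 109 CPM in the controls, 1433 to 3672 CPM in TL3h, 168 to 883 CPM in TL3d, and 3.97 to 160 CPM in TL14d, and all 9 that were tested rose at 3 hours, against 1 of 9, S100A12, at 3 days. Control replicate 3, the control with the most TLR4 and NLRP3, was also the one at 109 CPM, and TL14d replicate 1, with the least TLR4 of its group, was at 3.97 CPM. The replicates of the controls and of TL3h had the same order for these markers, TLR4, and NLRP3. In TL3d they did not: replicate 1 had the highest marker sum (883 CPM) and the least TLR4 (110 CPM) and NLRP3 (36.4 CPM). In TL14d the markers were highest in replicate 2 (160 CPM) and NLRP3 in replicate 3 (10.3 CPM). MPO, an enzyme of neutrophil granules, was at or below 0.114 CPM in every library, whereas CSF3R, the receptor for the growth factor of neutrophils, went from 1.09, 2.05, and 18.9 CPM in the controls to 702, 607, and 228 CPM in TL3h. The 10 monocyte and macrophage markers summed to 117 to 902 CPM in the controls, 711 to 1020 CPM in TL3h, 1537 to 2433 CPM in TL3d, and 161 to 436 CPM in TL14d, with 2 of 10 higher at 3 hours and 5 of 10 at 3 days, beside 23.2% and 10.6% of all genes. TL3h replicates 1 and 3 (711 and 719 CPM) lay below control replicate 3 (902 CPM), and every TL3d library lay above all controls. Dendritic cell markers summed to 2.25 to 10.4 CPM, 15.6 to 24.6 CPM, 35.4 to 46.7 CPM, and 2.02 to 22.2 CPM in the same order of groups. The part of these cells in the changes of the 10 genes was not tested. In bulk tissue, more cells of a type and more RNA of a gene per cell cannot be told apart.

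**Figure D3:**
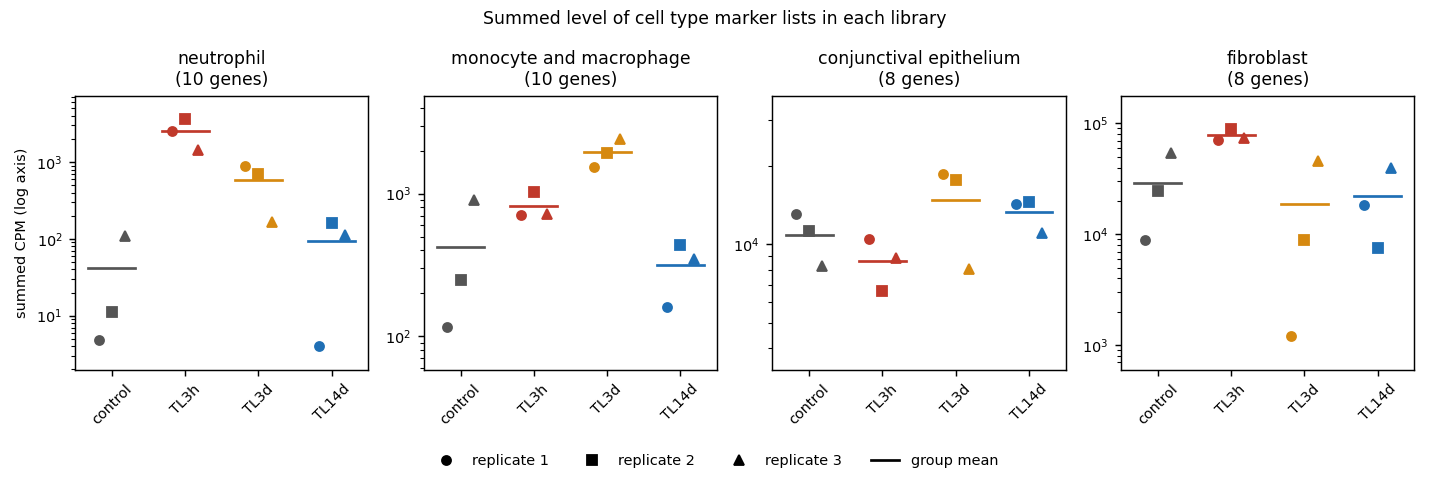
Summed level, in TMM-scaled CPM on a log axis, of the markers of 4 cell types in each library, with the group mean as a bar. Neutrophil markers are highest in TL3h (1433 to 3672) and monocyte and macrophage markers in TL3d (1537 to 2433), while the 8 epithelial markers range from 6633 to 18526 over all 12 libraries.

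Markers of structural and other cell types were followed in the same way. The 8 epithelial markers in the table summed to 8230 to 13044 CPM in the controls, 6633 to 10474 CPM in TL3h, 8022 to 18526 CPM in TL3d, and 11023 to 14539 CPM in TL14d, with 1 of 8 higher and 1 lower at 3 hours and again at 3 days. Keratins of this list moved in opposite directions: KRT15 was at 2743, 2471, and 1447 CPM in the controls and at 159, 219, and 437 CPM in TL3d, and KRT5 was at 2695, 1937, and 1258 CPM and at 9067, 8649, and 3595 CPM. Fibroblast markers summed to 8817 to 54027 CPM in the controls, 70338 to 88944 CPM in TL3h, 1208 to 45965 CPM in TL3d, and 7562 to 39935 CPM in TL14d. None of these 8 passed the test at any time, where 45.4%, 17.6%, and 0.00% of all genes passed. Endothelial markers summed to 70.4 to 308 CPM in the controls, 645 to 1274 CPM in TL3h, and 317 to 587 CPM in TL3d, with 2 of 8 higher at 3 hours (25%, beside 23.2% of all genes). Most of this sum in TL3h was PECAM1 (717, 972, and 459 CPM), an adhesion molecule that leukocytes and platelets also carry. CDH5, the cadherin of endothelial junctions, was the other marker called, at 2.04, 10.8, and 31.8 CPM in the controls and 64.3, 113, and 68.3 CPM in TL3h (log2 fold change 2.46, adjusted p = 0.04 in edgeR). The TL3h libraries of CLDN5 (1.72, adjusted p = 0.0723) and ESAM (1.18, 0.17) also lay above every control, and those of VWF (0.87, 0.44), TIE1 (0.36, 0.666), TEK (−0.35, 0.733), and KDR (−0.82, 0.396) overlapped the controls. Schwann cell markers summed to 17.1 to 26.3 CPM in the controls, 32.9 to 50.4 CPM in TL3h, and 7.24 to 11.9 CPM in TL3d. In this list only MBP was called at 3 hours, and the median log2 fold change was −0.08 at 3 hours and −1.75 at 3 days. Mast cell markers summed to 111 to 220 CPM in the controls, 40.7 to 44.8 CPM in TL3h, and 26.5 to 43.4 CPM in TL3d, where KIT, which other cell types also express, fell while MS4A2, a subunit of the IgE receptor, rose at both times and HDC, the enzyme that makes histamine, at 3 hours. Skeletal muscle markers summed to 20.2 to 525 CPM in the controls and 9.71 to 13.7 CPM in TL3h. They were at 1.32, 1.51, and 475 CPM in TL3d, where replicate 3 was the high library, as control replicate 2 was among the controls (525 CPM), and at 2.69 to 57.1 CPM in TL14d. T cell markers (11.9 to 47.4 CPM over all libraries) and B and plasma cell markers (214 to 3532 CPM) overlapped between the controls and each operated group.

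TLR2, the lipoprotein receptor, fell at 3 hours. The gene lies at chr15:9907319-9921223 on the plus strand of OryCun2.0. TLR2 was at 106, 87.5, and 57.4 CPM in the controls and at 24.3, 15.8, and 22.9 CPM in TL3h. It was at 69.2, 77.1, and 56.9 CPM in TL3d and at 90.9, 59.1, and 40.4 CPM in TL14d. The TL3h libraries all lay below the lowest control, and the ranges at 3 and 14 days overlapped the controls. At 3 hours TLR2 fell 3.98-fold (log2 fold change −1.99 ± 0.32, n = 3 a group, adjusted p = 0.000841 in edgeR), a call that held in all 19 alternatives. The change was −0.30 at 3 days and −0.40 at 14 days, with adjusted p of 0.508 and 0.681.

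TLR6, which pairs with TLR2, lies at chr2:28245239-28270069 on the minus strand. Its levels were low throughout: 18.3, 19, and 9.33 CPM in the controls, 9.23, 11.2, and 5.71 CPM in TL3h, 9.32, 15.4, and 16.2 CPM in TL3d, and 18.6, 11.3, and 19.2 CPM in TL14d. Each operated group overlapped the controls. The log2 fold change at 3 hours was −0.84 ± 0.36 (n = 3 a group, adjusted p = 0.0856 in edgeR), and it passed the test in 4 of 19 alternatives, among them without control replicate 3.

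TLR3, the receptor for double-stranded RNA, lies at chr2:63507464-63542169 on the plus strand, 58.3% of its estimated counts were not whole numbers, and its 3 transcript models are described below. It was at 204, 184, and 106 CPM in the controls and at 76.5, 31.8, and 45.9 CPM in TL3h. It was at 152, 123, and 116 CPM in TL3d and at 127, 78, and 77 CPM in TL14d. The TL3h libraries lay below every control, and the later groups overlapped the controls. TLR3 fell 3.2-fold at 3 hours (log2 fold change −1.68 ± 0.36, n = 3 a group, adjusted p = 0.0036 in edgeR), which held in all 19 alternatives. The changes at 3 days and 14 days were −0.34 (adjusted p = 0.507) and −0.81 (adjusted p = 0.472).

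TLR5, the flagellin receptor, lies at chr16:49977290-49980870 on the plus strand. It was at 219, 183, and 248 CPM in the controls, 118, 101, and 159 CPM in TL3h, 169, 117, and 105 CPM in TL3d, and 226, 111, and 112 CPM in TL14d. All TL3h and TL3d libraries lay below the lowest control, while TL14d replicate 1 lay within the control range. The log2 fold changes of −0.78 ± 0.31 at 3 hours and −0.73 ± 0.31 at 3 days did not pass the test (n = 3 a group, adjusted p = 0.0628 and 0.12 in edgeR). TLR5 passed at 3 hours in 8 of 19 alternatives, with an adjusted p of 0.0174 without TL14d replicate 1 and 0.0426 without TL3h replicate 3. At 3 days it passed in 1 of 19, without TL14d replicate 1, with an adjusted p of 0.0431.

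MYD88, the adaptor that carries the signal of most of these receptors, had the smallest spread between replicates, relative to its mean, of the 10 genes at each time after surgery. It was at 44.4, 39.4, and 61.3 CPM in the controls and at 148, 148, and 130 CPM in TL3h. It was at 77.4, 82.5, and 72.9 CPM in TL3d and at 58.5, 53.7, and 51.1 CPM in TL14d. The groups TL3h, TL3d, and TL14d did not overlap each other, and the TL14d libraries lay within the control range. MYD88 rose 2.93-fold at 3 hours (log2 fold change 1.55 ± 0.16, n = 3 a group, adjusted p = 8.28e-05 in edgeR), a call that held in all 19 alternatives. It was 0.68 ± 0.16 higher on the log2 scale at 3 days (adjusted p = 0.021), and this call was lost without control replicate 1 or 2 or TL3d replicate 1 or 2, with adjusted p up to 0.0808. Its locus is on unplaced sequence, and all of its estimated counts were whole numbers.

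The cytosolic sensors NOD1 and NOD2 both rose at 3 hours. NOD2, on unplaced sequence, was at 36.5, 31.5, and 20.3 CPM in the controls and at 73.1, 63.1, and 69.1 CPM in TL3h. It was at 55.6, 54.3, and 33.1 CPM in TL3d and at 35.7, 44.2, and 32.5 CPM in TL14d. The TL3h libraries lay above all controls, and the other groups overlapped them. The log2 fold change of NOD2 was 1.22 ± 0.25 at 3 hours (n = 3 a group, adjusted p = 0.00308 in edgeR), and 0.70 with an adjusted p of 0.0533 when counts were scaled by library size alone. At 3 days it was 0.70 with an adjusted p of 0.0755. It passed at 3 days without TL3d replicate 3 (0.90, adjusted p = 0.0353), with the 3 libraries that stood apart left out (0.68, 0.0282), and by DESeq2 (0.69, 0.0476).

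NOD1 lies at chr10:14822801-14870612 on the minus strand. It was at 11.5, 15.7, and 22.7 CPM in the controls, 26.6, 37, and 24.9 CPM in TL3h, 26.5, 21.2, and 34.7 CPM in TL3d, and 15.4, 14.5, and 18.7 CPM in TL14d. TL3h lay above all controls by a small margin, and TL3d replicate 2 lay below the highest control. NOD1 rose 0.83 ± 0.28 on the log2 scale at 3 hours (n = 3 a group, adjusted p = 0.0323 in edgeR). This call was lost in 6 of 19 alternatives: with library size alone (0.34, adjusted p = 0.284), with only the 6 libraries compared (adjusted p = 0.063), and without control replicate 1 or 2 or TL3h replicate 1 or 2 (0.58 to 0.85, adjusted p up to 0.142). The change at 3 days was 0.73 with an adjusted p of 0.0892, and the call was reached without control replicate 3 (adjusted p = 0.0398).

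CASP1, the protease of the inflammasome, passed the test at 3 days and not at 3 hours. The gene lies at chr1:111572412-111585244 on the plus strand. CASP1 was at 2.75, 4.05, and 2.36 CPM in the controls and at 6.15, 3.03, and 3.07 CPM in TL3h. It was at 7.34, 8.99, and 11.4 CPM in TL3d and at 2.72, 4.57, and 3.16 CPM in TL14d. The TL3d libraries lay above all other libraries, and the TL3h and TL14d libraries overlapped the controls. CASP1 rose 3.02-fold at 3 days (log2 fold change 1.60 ± 0.36, n = 3 a group, adjusted p = 0.02 in edgeR), and the change at 3 hours was 0.42 with an adjusted p of 0.372 and a negative sign when counts were scaled by library size alone (−0.09). The call at 3 days was lost in 5 of 19 alternatives, among them without control replicate 1 or 2 and without TL3d replicate 1 or 2 (1.53 to 1.85, adjusted p 0.0511 to 0.0734), and with control replicate 3, TL3d replicate 3, and TL14d replicate 1 all left out (1.25, adjusted p = 0.0682).

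At 14 days the log2 fold changes of the remaining genes did not pass the test: 0.35 ± 0.25 for NOD2, 0.19 ± 0.36 for CASP1, 0.17 ± 0.16 for MYD88, 0.15 ± 0.79 for TLR4, 0.07 ± 0.36 for TLR6, −0.04 ± 0.27 for NOD1, −0.53 ± 0.31 for TLR5, and −0.93 ± 0.82 for NLRP3 (SE, n = 3 a group, adjusted p from 0.579 to 0.972 in edgeR). The value for NLRP3 was 0.89 without control replicate 3, and with the 3 libraries that stood apart left out that for TLR4 was 2.08 (adjusted p = 0.0467).

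The change between time points was tested directly in the same fit. From 3 hours to 3 days TLR2, TLR3, and CASP1 rose and MYD88 fell (4 of 10 genes, against 37.3% of all genes). The log2 changes were 1.69 for TLR2 (adjusted p = 0.00258), 1.34 for TLR3 (0.0137), 1.18 for CASP1 (0.0264), and −0.87 for MYD88 (0.00198). TLR4 and NLRP3 did not pass, with log2 changes of −1.02 (adjusted p = 0.339) and −1.20 (0.273), although every TL3d library lay below every TL3h library for both, and both passed when only the 6 libraries compared were fitted (−0.99, adjusted p = 0.026, and −1.18, 0.0298). TLR6 passed with library size only (1.12, adjusted p = 0.034). The CASP1 call was lost without TL3h replicate 2 or 3, without TL3d replicate 2 or 3, or with the 3 libraries named above left out (adjusted p up to 0.0815).

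From 3 hours to 14 days TLR2 rose and TLR4, NLRP3, MYD88, NOD1, and NOD2 fell (6 of 10 genes, against 45.3% of all genes). The largest falls were in NLRP3, which decreased by 3.91 on the log2 scale (adjusted p = 0.00614), and TLR4, which decreased by 3.67 (0.00688). MYD88 changed by −1.38 (adjusted p = 0.000148), NOD2 by −0.87 (0.017), NOD1 by −0.86 (0.0276), and TLR2 by 1.60 (0.00278). The NOD1 call was lost without TL3h replicate 2 or TL14d replicate 1 or 2, the NOD2 call without TL3h replicate 1 or 3 or TL14d replicate 3, and both with library size alone (−0.38 for each), with adjusted p from 0.0535 to 0.267. TLR3 did not pass (0.87, adjusted p = 0.0654 by edgeR) but did without control replicate 3 (0.91, 0.0404) or TL3h replicate 1 (1.31, 0.0152), with library size only (1.35, 0.012), and by DESeq2 (0.91, 0.0302). TLR6 did not pass (0.91, adjusted p = 0.0644 by edgeR) but did without control replicate 3 (0.95, 0.036) or TL14d replicate 2 (1.12, 0.0405), with library size only (1.40, 0.011), and by DESeq2 (0.94, 0.0309).

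From 3 days to 14 days none of the 10 genes passed in edgeR, against 2.24% of all genes. At an unadjusted p under 0.05 there were 5 of the 10 and 3351 of all 14836 genes, and DESeq2 called 4 of the 10 and 12.5% of all genes. Those 4 were TLR4 (log2 change −2.65, edgeR adjusted p = 0.109), NLRP3 (−2.71, 0.112), MYD88 (−0.51, 0.101), and CASP1 (−1.41, 0.0706). TLR4, NLRP3, and MYD88 passed in edgeR without control replicate 3 (adjusted p = 0.0487, 0.0309, and 0.0479).

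Levels of different genes can be compared only per length, for which the deposited FPKM values were used (read fragments divided by transcript length and by depth). In the controls TLR5 had the highest level at 56.8 ± 6.77 FPKM (SD, n = 3), followed by TLR3 at 33.4 ± 11.3 and TLR2 at 24.5 ± 7.82. MYD88 stood at 16.1 ± 3.19 FPKM, NOD2 at 6.82 ± 2.1, and TLR6, TLR4, NLRP3, NOD1, and CASP1 between 3.62 and 1.85 FPKM. Of the neighbours in this order, only TLR5 and TLR3, and MYD88 and NOD2, had library ranges that did not overlap. TLR4 moved from the seventh place in the controls to the first in TL3h, where it was at 37 ± 9.9 FPKM beside MYD88 at 34.2 ± 1.77, TLR5 at 24 ± 6.31, NLRP3 at 16.5 ± 6.12, NOD2 at 11.4 ± 1.01, TLR3 at 7.46 ± 3.34, and TLR2 at 4.41 ± 1.02. The ranges of TLR4 and MYD88 overlapped there, and those of MYD88 and TLR5 did not. In TL3d TLR5 led again at 34.8 ± 9.55 FPKM, with TLR3 (26.4 ± 4.27), MYD88 (26.2 ± 2.23), TLR4 (25.7 ± 4.53), and TLR2 (19.9 ± 3.43) each overlapping its neighbour. In TL14d TLR5 (39.9 ± 17.7 FPKM), TLR3 (19.1 ± 5.79), TLR2 (18.7 ± 7.57), MYD88 (18.4 ± 1.37), and NOD2 (8.73 ± 1.5) held the first places in the control order, and TLR4 was at 4.11 ± 3.12 FPKM.

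Within a library, the ratio of TLR4 to TLR2 in CPM does not depend on scaling. It was 0.0407, 0.109, and 0.781 in the controls and 11.1, 22.7, and 8.71 in TL3h. It was 1.59, 2.02, and 2.54 in TL3d and 0.0688, 0.656, and 0.5 in TL14d. Every TL3h and TL3d library lay above every control library, and the TL14d libraries lay within the control range. The ratio of NLRP3 to CASP1 was 0.922, 1.14, and 13.1 in the controls, 17.3, 44.9, and 19 in TL3h, 4.96, 5.61, and 3.85 in TL3d, and 0.889, 1.58, and 3.27 in TL14d, so that control replicate 3 lay between the TL3h libraries and the rest.

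Other genes of these pathways were followed in 5 lists, 79 tested genes in all. At 3 hours 35 were higher and 8 lower, and at 3 days 21 were higher and 1 lower, while none passed at 14 days (of all genes, 45.4%, 17.6%, and 0.00% passed). The 22 calls at 3 days fell to 7 to 10 without control replicate 1 or 2 or TL3d replicate 1 or 2, and at 14 days 7 genes passed without TL14d replicate 1. In the relay from receptor to NF-κB, of 26 genes tested, 13 were higher and 4 lower at 3 hours (median log2 fold change 0.50; 10 calls without control replicate 1), against 3 higher and 1 lower at 3 days (median 0.19; 2 calls without any 1 of those 4 libraries). MAP3K8, a kinase that activates ERK downstream of TLRs, rose from 9.27 ± 1.76 to 32.3 ± 1.36 CPM (mean ± SD, n = 3) at 3 hours (log2 fold change 1.80, adjusted p = 8.13e-05 in edgeR). PELI1, a ubiquitin ligase that acts with IRAK kinases, rose by 1.52 (adjusted p = 0.00123). TAB1, a partner of the kinase TAK1, fell from 25.9 ± 2.9 to 7.66 ± 0.296 CPM (−1.76, adjusted p = 3.86e-05), and TRAF3 changed by −0.60 (adjusted p = 0.0161, 0.0628 without control replicate 1). At 3 days IRF5, a transcription factor activated through MYD88, rose from 27 ± 2.28 to 76.8 ± 8.94 CPM (1.51, adjusted p = 0.00694), a call that held in all 19 alternatives, after a fall to 18 ± 1.07 CPM at 3 hours (−0.59, adjusted p = 0.0237). TICAM2, the adaptor that couples TLR4 to the TRIF branch, gained 1.25 (adjusted p = 0.0239) and XIAP, which relays NOD2 signals, changed by −0.41 (adjusted p = 0.0347). Both calls were lost without control replicate 1 or 2 or without TL3d replicate 1 or 2, TICAM2 also without control replicate 3, and XIAP also without TL3d replicate 3 (adjusted p up to 0.0867 and 0.125).

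**Figure D4:**
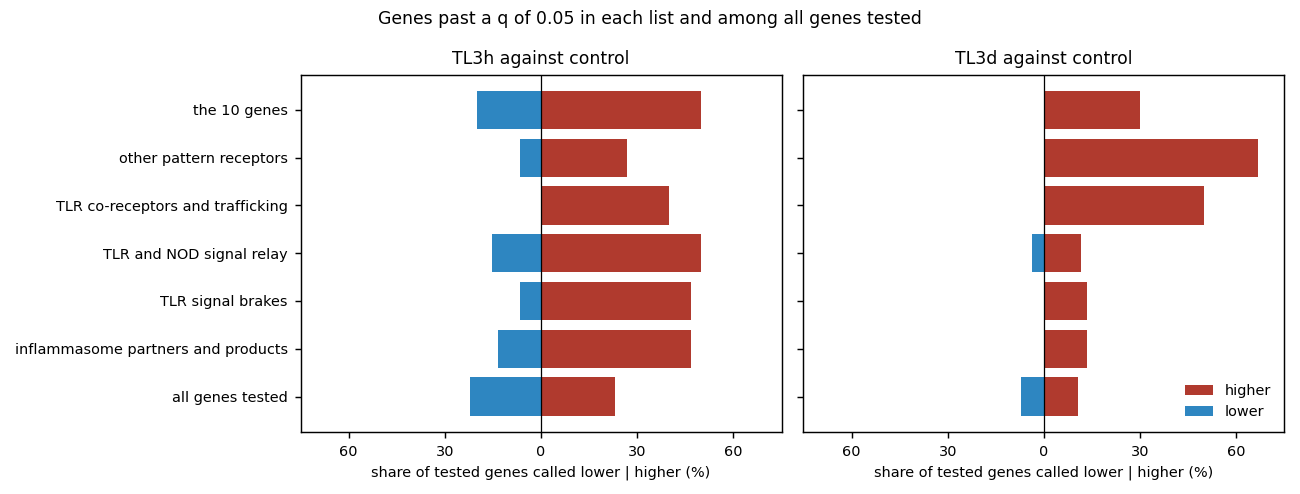
Share of tested genes that passed an adjusted p of 0.05, to the right when higher and to the left when lower than in the control group, for the 10 genes, 5 pathway lists, and all 14836 genes. At 3 days 66.7% of the other pattern receptors and 50% of the TLR co-receptors were higher, against 10.6% of all genes. Without control replicate 1 or 2 or TL3d replicate 1 or 2, at most 4 of 15 and 2 of 10 were called, beside 2.36% to 3.23% of all genes. At 3 hours 50% of the relay genes were higher, against 23.2% of all genes.

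Of 15 other pattern receptors tested, 4 were higher (26.7%, beside 23.2% of all genes) and 1 lower (6.67%, beside 22.2%) at 3 hours (median 0.43). At 3 days 10 were higher (66.7%, beside 10.6% of all genes; median 1.59), and the 10 calls became 3 or 4 without control replicate 1 or 2 or TL3d replicate 1 or 2. Of 10 TLR co-receptors and trafficking genes tested, 4 were higher at 3 hours (40%; median 1.01; 2 calls without control replicate 2) and 5 at 3 days (50%; median 1.65; 1 or 2 calls without any 1 of the same 4 libraries). CD14, which hands lipopolysaccharide to TLR4, went from 15.6 ± 15.2 CPM in the controls to 195 ± 71.4 CPM in TL3h and 166 ± 42.6 CPM in TL3d (log2 fold changes 3.64 and 3.41, adjusted p = 0.0126 and 0.0403 in edgeR). Its call at 3 hours was lost without control replicate 2 (0.0514) and that at 3 days in 9 alternatives that each left out 1 library (up to 0.125), and without control replicate 3 the changes were 4.78 and 4.58. LRRC32, a cell surface protein that holds latent TGF-β, rose by 3.62 at 3 hours (adjusted p = 0.0139; 0.0554 without control replicate 2, and 5.07 without control replicate 3). LY86, the partner of the TLR4-like receptor CD180, rose by 4.07 at 3 days (adjusted p = 0.0169), and the call was lost without control replicate 1 or 2 or TL3d replicate 2 (up to 0.0661).

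Among the other receptors, CLEC4E, a receptor for glycolipids of mycobacteria and fungi, rose from 0.716 ± 0.901 CPM in the controls to 50.1 ± 16.1 CPM in TL3h (6.13, adjusted p = 0.00615 in edgeR) and 21.9 ± 12.4 CPM in TL3d (4.93, adjusted p = 0.0362). Without control replicate 3 its changes were 7.92 and 6.76, and the call at 3 days was lost in 7 of 19 alternatives, 6 of which left out 1 library each: control replicate 1 or 2, TL3h replicate 1 or 3, or TL3d replicate 1 or 2 (adjusted p up to 0.114). CLEC7A, the receptor for fungal β-glucan, rose from 2.83 ± 0.415 to 63.3 ± 7.29 CPM at 3 days (4.48, adjusted p = 0.0179), and the call was lost without control replicate 1 or 2 or TL3d replicate 1 or 2 (up to 0.0685). NLRP12, a NOD-like receptor of myeloid cells, was at or under the floor of 3 counts a library in the controls and at 4.96 ± 2.19 CPM in TL3h, at least 67.2-fold higher (adjusted p = 0.000192 in edgeR). NLRC5, an activator of MHC class I genes, fell from 33.4 ± 15.7 to 8.48 ± 4.01 CPM at 3 hours (−1.98, adjusted p = 0.00377).

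Of 15 genes that restrain TLR signalling, 7 were higher (46.7%, beside 23.2% of all genes) and 1 lower (6.67%, beside 22.2%) at 3 hours (median 0.47). At 3 days 2 were higher (median 0.33), a share of 13.3% beside 10.6% of all genes. Without control replicate 1 or 2 or TL3d replicate 1 or 2 there were 0 or 1 calls at 3 days. TNIP3, a binding partner of the NF-κB inhibitor TNFAIP3, rose from 0.373 ± 0.275 to 6.7 ± 3.69 CPM at 3 hours (4.16, adjusted p = 0.0123 in edgeR; 4.85 without control replicate 3 and 3.56 without TL3h replicate 1). SOCS1, an inhibitor of cytokine signalling, rose from 0.945 ± 0.12 to 6.78 ± 3.45 CPM (2.84, adjusted p = 0.00176). OTULIN, which removes linear ubiquitin chains, changed by −0.40 (adjusted p = 0.0182; 0.0588 at most, without control replicate 1 or with only the 6 libraries compared). At 3 days USP18, a brake on interferon signalling, rose by 1.86 (adjusted p = 0.0155) and NLRX1, a mitochondrial NOD-like receptor that also stands among the pattern receptors, by 1.11 (0.0142). Both calls were lost without control replicate 2 or TL3d replicate 1, and NLRX1 also without control replicate 1 or TL3d replicate 2 (up to 0.0529 and 0.0536).

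Of 15 inflammasome partners and products, 7 were higher (46.7%, beside 23.2% of all genes) and 2 lower (13.3%, beside 22.2%) at 3 hours (median 0.24). At 3 days 2 were higher (median 0.33), again 13.3% beside 10.6% of all genes. The calls at 3 days were 1 without control replicate 1 or 2 or TL3d replicate 1 or 2, 4 without TL14d replicate 2, and 5 without TL14d replicate 1. IL1B, the cytokine that CASP1 matures, rose from 1.63 ± 2.06 to 391 ± 89.5 CPM at 3 hours (log2 fold change 7.91, adjusted p = 0.0111 in edgeR; 9.73 without control replicate 3). IL1A, a related alarm cytokine, went from 0.115 ± 0.0175 CPM in the controls to 68.4 ± 51.4 CPM in TL3h (9.17, adjusted p = 0.011; 8.43 without TL3h replicate 1) and 80.7 ± 77.3 CPM in TL3d (9.41, adjusted p = 0.0291). The IL1A call at 3 days was lost without any 1 of the control libraries or without TL3d replicate 1 or 2 (up to 0.0985), and its change was 8.34 without TL3d replicate 1. GSDMD, the pore protein cut by CASP1, rose from 13.8 ± 1.89 CPM to 100 ± 29.1 CPM at 3 hours (2.86, adjusted p = 8.79e-05) and was at 45.2 ± 13.9 CPM at 3 days (1.72, adjusted p = 0.0105, a call that held in all 19 alternatives). P2RX7, the ATP-gated channel that triggers NLRP3, fell from 72.4 ± 22.7 to 10.2 ± 2.53 CPM at 3 hours (−2.83, adjusted p = 0.000353), and BRCC3, which removes ubiquitin from NLRP3, fell from 17.3 ± 1.08 to 7.27 ± 0.675 CPM (−1.25, adjusted p = 0.000113).

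The table of transcripts is a second readout of the same libraries and held 27 models of the 10 genes, of which 24 were tested among 26083 transcripts. At 3 hours 8 of the 24 passed, 5 higher and 3 lower, against 28.3% of all transcripts. At 3 days 1 passed, the model XM_002723869.3 of MYD88 (log2 fold change 0.67, adjusted p = 0.0457 in edgeR), against 5.14%, and at 14 days none did (0.00%). Both models of TLR4 rose at 3 hours, XM_008273277.2 by 3.66 (adjusted p = 0.0099) and NM_001082732.2 by 4.13 (0.0101), and the first carried 68.8% to 84.5% of the TLR4 level in every library. The main model of NOD2, XM_008275042.2, rose by 1.22 (adjusted p = 0.00763) and carried 72.7% to 91.6% of the NOD2 level. The second model of MYD88 was listed at 0 in all 12 libraries.

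In TLR3 the share given to each model varied between groups. The model XM_008273952.2 took 69.3%, 62.9%, and 61.2% of the TLR3 level in the controls and 61.4%, 24.7%, and 66.3% in TL3h. It took 27.2%, 34.1%, and 14.8% in TL3d and 42.6%, 60.8%, and 44.3% in TL14d. The model XM_017350055.1 took 28.4%, 33.1%, and 35.9% in the controls, 71.5%, 64.5%, and 85.2% in TL3d, and 57.2%, 36.6%, and 51.9% in TL14d. The TL3d and TL14d shares of both models lay outside the control range in all 3 libraries, TL14d replicate 2 by the smallest margin, and TL3h replicate 2 lay with the TL3d libraries. The log2 fold changes at 3 days were −1.69 for the first model and 0.87 for the second, and neither passed (adjusted p = 0.109 and 0.174 in edgeR). Both models fell at 3 hours, by 1.96 (adjusted p = 0.0303) and by 1.35 (0.0204) on the log2 scale. The models are 4470 and 4483 bases long, and how the estimated counts were divided between them is not given in the sources used here.

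**Figure D5:**
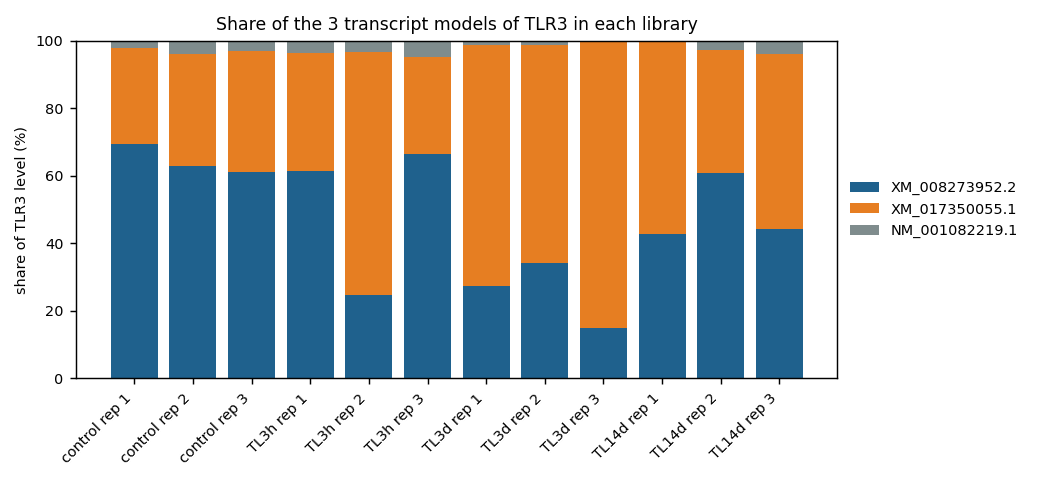
Share of the TLR3 level, in percent, that was given to each of its 3 transcript models in each of the 12 libraries. XM_008273952.2 holds 61.2% to 69.3% in the control libraries and 14.8% to 34.1% in the TL3d libraries.

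The genes whose course was most like that of each of the 10 were found over the 12 libraries by the root-mean-square difference of log2 CPM after centring each gene on its own mean. TLR4 and NLRP3 had the same nearest gene, C5AR1, the receptor for the complement fragment C5a, at 0.28 each, where the SD of TLR4 and NLRP3 themselves was 2.06 and 1.87. The next were NFAM1, an activating receptor of immune cells, for TLR4 (0.47) and RCSD1 for NLRP3 (0.40). TLR2 was nearest to TNFRSF11A (0.20) and MINK1 (0.24), TLR3 to LOC100352110 (0.28) and ZFYVE19 (0.29), TLR5 to LOC103346188 (0.18) and KAT2B (0.21), and TLR6 to RFX2 (0.22) and LOC103345202 (0.23). MYD88 was nearest to TFE3 (0.12) and HYPK (0.15), NOD1 to SCPEP1 and QKI (0.21 each), NOD2 to ANXA2 (0.16) and LIMA1 (0.18), and CASP1 to SMPDL3B (0.26) and ARHGDIB (0.27). Among the 10 genes themselves the nearest were TLR2 and TLR3 (0.31), MYD88 and NOD2 (0.39), MYD88 and NOD1 (0.40), and TLR4 and NLRP3 (0.49). These differences are a description over libraries that share depth, tissue, and surgery.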

How the data were processed

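Reads (150 bp, paired-end, TruSeq Stranded mRNA) of 12 conjunctiva libraries, 3 per group, were mapped by the authors with STAR 2.6.0c to OryCun2.0, and GeneData Profiler Genome made the values. The deposited estimated counts per gene and transcript (23.4% of gene values not whole, 27111348 to 38591425 a library) are not divided by depth; how reads with several placements were shared is not given in the sources used here. The deposited FPKM values, divided by the authors by length and depth, served only to order levels between genes. MicroShunt libraries were not analysed here.

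Counts were rounded and fitted over all 12 libraries with edgeR 4.0.16 (TMM, filterByExpr with a minimum count of 10, quasi-likelihood F-test, Benjamini-Hochberg over 14836 of 20566 genes or 26083 of 38710 transcripts, threshold 0.05). The standard error is the size of the log2 fold change divided by the square root of F. Nothing in the labels says that replicates are separate animals, so p-values measure the spread between these samples. Alternatives were DESeq2 1.42.0 size factors and test, library size alone, no filter, a replicate block, only the 6 libraries compared, each library left out, and, chosen after seeing the data, 3 libraries left out together. List genes are named by a rule: for 3 hours and 3 days, up to 2 genes per list with the largest rise and fall among called genes that averaged 1 CPM or more and whose operated and control libraries were fully separated; likeness used a pseudocount of 0.5. Other list and marker genes, such as S100A12, the endothelial markers, MBP, KIT, and GSDMD at 3 hours, were named after their values were seen. The genes and lists were chosen with earlier results of these data known. The code was tested on simulated data.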

Additional observations from a re-analysis of the deposited data

Results flagged for a closer look

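The change from control differed between times by the test of the difference itself (edgeR, log2 scale, 3 libraries a group). Between 3 hours and 3 days the difference (3 days minus 3 hours) was 1.69 for TLR2, 1.34 for TLR3, 1.18 for CASP1, and −0.87 for MYD88. Between 3 hours and 14 days (14 days minus 3 hours) it was 1.60 for TLR2, −3.67 for TLR4, −3.91 for NLRP3, −1.38 for MYD88, −0.87 for NOD2, and −0.86 for NOD1. Since the control libraries cancel, each is the contrast of the 2 operated groups, and the libraries on which the CASP1, NOD1, and NOD2 calls rest are named above.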

How the results depend on the processing

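Counts of the 10 genes called stayed within 1.5 times in every alternative at 3 hours (5 to 9), from 3 hours to 3 days, from 3 hours to 14 days, and over the 3 times together. At 3 days the count was 0 to 5 with 1 library left out. From 3 days to 14 days it was 4 with DESeq2 and 0 to 3 with 1 library left out (3 without control replicate 3). With control replicate 3, TL3d replicate 3, and TL14d replicate 1 all left out, an alternative chosen after seeing the data, 1 gene was called at 14 days (TLR4, 2.08, adjusted p = 0.0467), 13 transcripts at 3 hours, 5 transcripts and 36 list genes at 3 days, and 12 list genes at 14 days. Transcripts at 3 days were 6 with DESeq2, 0 with no filter, 0 with a replicate block, and 0 to 4 with 1 library left out. List genes at 3 days fell to 7 without control replicate 2, and at 14 days 4 with DESeq2 and 0 to 7 with 1 library left out (7 without TL14d replicate 1).

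Scaling by library size alone moved the share of called genes that were higher from 51% to 25% at 3 hours, from 49.2% to 80.5% for 3 days against 3 hours, and from 50.6% to 77.6% for 14 days against 3 hours. It turned the sign of CASP1 at 3 hours (−0.09), of NOD1 from 3 hours to 3 days (0.37), and of CASP1 from 3 hours to 14 days (0.26). All other turned signs were of changes that did not pass, with libraries left out. Their ranges were, against control, −0.05 to 0.67 for CASP1 at 3 hours, −0.61 to 0.02 for TLR6 at 3 days, and, at 14 days, −0.57 to 2.08 for TLR4, −0.31 to 0.28 for TLR6, −0.24 to 0.28 for NOD1, −1.42 to 1.28 for NLRP3, and −0.05 to 0.45 for CASP1. From 3 hours to 3 days they were −0.18 to 0.30 for TLR5 and −0.30 to 0.13 for NOD1. From 3 days to 14 days they were −0.55 to 0.15 for TLR2 and −0.36 to 0.43 for TLR5, and from 3 hours to 14 days −0.17 to 0.50 for TLR5 and −0.47 to 0.23 for CASP1. The cause was not tested.

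Whether replicate numbers pair the samples is not given in the sources used here. Deviations of same-numbered libraries correlated between −0.15 and 0.52. Differently numbered libraries were not compared, so this range cannot decide it. With the replicate block 8 of the 10 genes were called at 3 hours, 4 at 3 days, and 0 at 14 days. Calls of the 10 genes gained under the block were TLR5 at 3 hours (−0.78, adjusted p = 0.0412 in edgeR), NOD2 at 3 days (0.70, 0.0423), NOD2 from 3 hours to 3 days (−0.57, 0.0471), and TLR3 from 3 hours to 14 days (0.89, 0.0156). With 3 libraries a group, a change that missed the threshold is not shown to be absent.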
